A study of Drosophila melanogaster with 2 samples.

Results

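The summits described here are the points of highest signal of ChIP-seq peaks that lay 1 to 500 bp upstream of the transcription start site of a protein-coding gene, with no start site of any other gene within 2000 bp. They are called isolated upstream summits. Of the 9299 summits in the authors' reproducible list (cut at an irreproducible discovery rate, IDR), 1295 (13.9%) met this rule, and they belonged to 1160 genes. The list came from chromatin of whole Drosophila melanogaster embryos collected over 0 to 24 h, both sexes pooled. The transgenic line, nmo-GFP, carries the kinase gene nmo with GFP fused at its C-terminus, and the DNA was recovered with an antibody against GFP. There was 1 group of 2 samples, biological replicates 2 and 3, from separate biosamples. The promoter that drives the fusion is not given in the sources used here, all cell types of the embryo were mixed, and input chromatin was not analysed here.

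The product of nmo, Nemo, is the founding member of the Nemo-like kinases, proline-directed serine/threonine kinases known for roles in Wnt, BMP and planar polarity signalling and in the clock. A kinase has no DNA-binding domain of its own, so ChIP recovers DNA through whatever the tagged protein was close to. Many fly genes share a divergent promoter with a neighbour, which leaves unclear to which gene an upstream peak belongs. An isolated start has one gene only. Fly promoters fall into broad kinds: housekeeping promoters often carry DRE, the sequence that the factor DREF binds, Motif 1, which M1BP binds, or the Motifs 6 and 7, whereas developmental promoters more often carry a TATA box, an Initiator or GAGA repeats, to which the GAGA factor binds.

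The following windows show both ends of what was found. They were read from the RefSeq copy of the Release 6 assembly, which has the coordinates of dm6, along the strand of the gene, from 100 bp before the summit to 100 bp after it or to the last base before the start site. Each was among the strongest of its kind whose window holds the sequence upstream of the start and touches no exon. Capitals mark every match to the named sequence on either strand, and a match is a description of the letters, not a bound site. DRE was searched as TATCGATA, and its strongest cases were a subunit of the translation elongation factor and an uncharacterised gene.
eEF1gamma (chr3R:29220038-29220171, plus strand): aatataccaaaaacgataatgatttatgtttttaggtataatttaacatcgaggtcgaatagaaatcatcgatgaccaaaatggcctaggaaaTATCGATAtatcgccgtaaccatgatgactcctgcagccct
CG5674 (chr2L:17963208-17963378, plus strand): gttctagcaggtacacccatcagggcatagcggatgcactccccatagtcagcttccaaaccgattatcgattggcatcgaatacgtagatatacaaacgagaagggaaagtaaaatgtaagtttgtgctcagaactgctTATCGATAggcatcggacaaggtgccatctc
The Motif 1 core was searched as GGTCACACT, shown by a ribosomal protein gene and the gene for a subunit of phenylalanyl-tRNA synthetase; the RpL27 window also holds a DRE, left in lower case.
RpL27 (chr3R:25685052-25685189, minus strand): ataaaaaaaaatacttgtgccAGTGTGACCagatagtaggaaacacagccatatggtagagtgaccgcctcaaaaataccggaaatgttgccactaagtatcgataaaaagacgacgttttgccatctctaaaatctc
beta-PheRS (chr3R:24252680-24252811, minus strand): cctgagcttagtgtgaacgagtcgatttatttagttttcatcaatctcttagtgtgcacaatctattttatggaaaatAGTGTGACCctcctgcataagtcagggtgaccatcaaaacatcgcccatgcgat
GAGA was searched as GAGAGAG, shown by CG1907 and by an internal start of Btk, which encodes a Tec family tyrosine kinase.
CG1907 (chr3R:29618789-29618989, plus strand): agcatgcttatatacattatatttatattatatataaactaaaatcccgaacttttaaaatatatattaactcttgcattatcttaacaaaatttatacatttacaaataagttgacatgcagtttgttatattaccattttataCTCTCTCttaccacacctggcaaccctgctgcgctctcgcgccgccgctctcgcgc
Btk (chr2L:8277739-8277939, minus strand): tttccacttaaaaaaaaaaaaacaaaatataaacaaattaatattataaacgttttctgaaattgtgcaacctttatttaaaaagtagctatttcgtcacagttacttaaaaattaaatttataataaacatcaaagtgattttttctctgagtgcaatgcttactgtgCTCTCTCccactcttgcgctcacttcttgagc
A pair of the strongest summits, CG31145 and msi (musashi, an RNA-binding protein), had none of these. They hold TATAAA well upstream of the usual place of a TATA box, within A+T-rich DNA. The CG1907 and Btk windows hold TATAAA too, left in lower case there.
CG31145 (chr3R:23669761-23669961, minus strand): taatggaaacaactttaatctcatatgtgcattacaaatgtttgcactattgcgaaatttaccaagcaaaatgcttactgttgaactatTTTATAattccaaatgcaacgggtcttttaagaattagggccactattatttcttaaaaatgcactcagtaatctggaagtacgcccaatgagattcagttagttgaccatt
msi (chr3R:25515788-25515988, plus strand): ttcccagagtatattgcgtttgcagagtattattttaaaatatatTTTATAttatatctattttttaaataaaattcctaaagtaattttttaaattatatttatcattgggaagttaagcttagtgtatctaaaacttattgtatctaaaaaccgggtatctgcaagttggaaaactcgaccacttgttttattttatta
The G+C content of the printed stretch was 23.4% at msi, 32.8% at CG31145, 27.9% at Btk and 33.3% at CG1907. It was 35.8% at eEF1gamma, 46.2% at CG5674, 39.1% at RpL27 and 40.9% at beta-PheRS. The matches began at position -41 at eEF1gamma and -31 at CG5674, counted from the start site, but at -285 at msi and -213 at CG31145. Those between began at -54 at beta-PheRS, -68 at Btk, -117 at RpL27 and -131 at CG1907.

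Isolated upstream summits lay farther from the nearest start than summits at crowded promoters. Their median position was -167 (quartiles -287 and -72), against -109 (quartiles -169 and -56) for the 2950 summits upstream of a coding start that had another gene's start within 2000 bp. The difference in ranks, as Cliff's delta, was -0.255 (95% interval -0.293 to -0.216, where 0 means equal ranks and a negative value means farther upstream). Of the isolated upstream summits 31.4% (407 of 1295) lay 251 to 500 bp upstream, against 12.0% (354 of 2950) at crowded promoters. Among the crowded ones, 2060 lay between head-to-head starts, and of those 6.21% lay that far upstream. The other 890 crowded summits were nearer to the isolated ones, with 25.4% at 251 to 500 bp and a median position of -125, and still lay closer to the start (delta -0.126, interval -0.175 to -0.0772). Position was counted from the nearest coding start downstream of the summit. A crowded summit upstream of several genes therefore took the shortest of its distances, which builds in part of the difference. With only the outermost start of each gene the medians were -131 and -111 (delta -0.129, interval -0.175 to -0.0842). All intervals here cover only the counting of summits, which are not independent replicates.

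**Figure D1:**
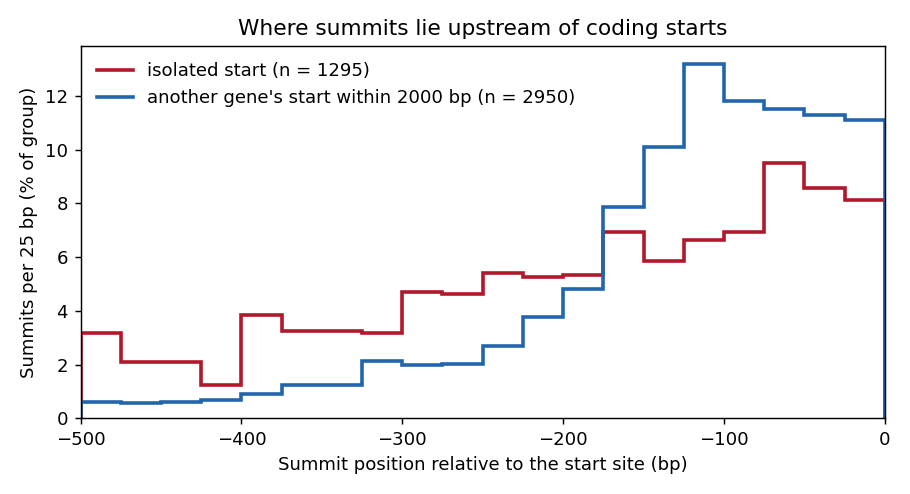
Share of summits in each 25 bp step upstream of the start site (0), for 1295 isolated upstream summits (red) and 2950 summits at crowded promoters (blue). The crowded group peaks at 101 to 125 bp and falls off beyond it, while the isolated group declines slowly over the whole 500 bp.

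Few summits lay on the gene side of an isolated start. Only 168 IDR summits were found 0 to 500 bp downstream of an isolated coding start, against the 1295 upstream. Their median signal value was 259, against 367 upstream (delta of upstream against downstream 0.332, interval 0.245 to 0.420). The median G+C content within 100 bp of the summit was 34.8% upstream and 40.3% downstream. A summit downstream of a start but also within 500 bp upstream of another start of the same gene was counted as upstream. How many summits this order moved was not counted. The signal value is the peak's own score from the authors' peak caller and is compared here only within a list.

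The strongest isolated upstream summits mostly lay well away from the start. Signal values ran over 166 to 7400, with a median of 367 (quartiles 244 and 581). By distance, the median was 268 at 1 to 50 bp (n = 216), 357 at 51 to 100 bp (n = 213), 428 at 101 to 150 bp (n = 162), 500 at 151 to 200 bp (n = 159) and 407 at 201 to 250 bp (n = 138). It stayed at 381 to 387 from 251 to 500 bp. The 324 strongest summits (582 and above) had a median position of -216 and a median G+C content of 31.8%. The 324 weakest (244 and below) had -156 and 36.8%. Between them, the 324 summits of 367 to 579 had -136 and 34.8%, and the 323 of 244 to 366 had -119 and 35.8%. Position thus did not shift steadily with signal. DRE, the Motif 1 core, Motif 6 or Motif 7 stood in 8.33% of the strongest and 24.7% of the weakest. The groups between had 23.5% and 24.5%, so only the strongest summits stood apart in this share. Crowded promoters had their highest median, 510, nearer, at 101 to 150 bp. Over all positions, isolated and crowded upstream summits had medians of 367 and 375 (delta -0.0315, interval -0.0698 to 0.00682). That comparison joins opposite ones: the isolated summits were weaker than those between head-to-head starts, of median 405 (delta -0.0884, interval -0.129 to -0.0479), and stronger than the other crowded summits, of median 316 (delta 0.100, interval 0.0515 to 0.149). With a 1000 bp isolation distance, a 250 bp upstream limit or the outermost start alone, the interval against all crowded summits lay below 0. The delta turned positive with 5000 bp isolation (0.0496, -0.00513 to 0.104) and in the 4649 IDR peaks of highest signal (0.00701, -0.0438 to 0.0578). Both of those intervals held 0.

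**Figure D2:**
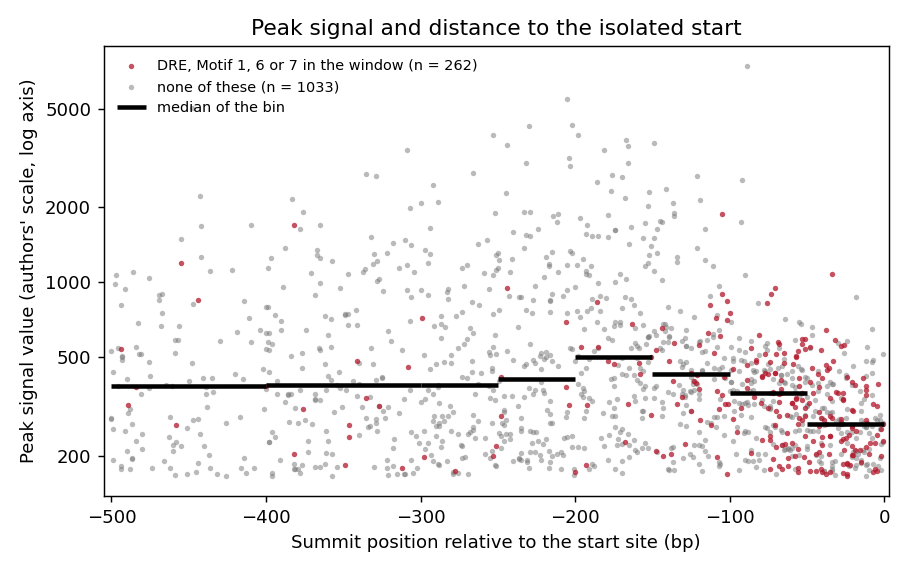
Signal value (log axis) of each of the 1295 isolated upstream summits against its position relative to the start site; red points have DRE, the Motif 1 core, Motif 6 or Motif 7 within 100 bp of the summit (n = 262), grey points have none (n = 1033), and black bars are the medians of the distance bins. Red points crowd within 100 bp of the start at low signal, and the highest points are grey.

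The 15 strongest isolated upstream summits, of 3032 to 7400, lay at positions -448 to -89 with a median of -202. None of the 15 had DRE, the Motif 1 core, Motif 6 or Motif 7 in its window, 7 had TATAAA and 1 had GAGAGAG. All of them ranked within the first 71 of replicate 2 and the first 61 of replicate 3. CG14100, an uncharacterised gene on 3L, had the highest value (7400, summit at 19590613, position -89), ranking 5 in replicate 2 and 1 in replicate 3. The second was px (plexus, a wing vein patterning gene on 2R), with 5465 at -205 upstream of an internal start, ranks 8 and 9. The third was ph-p, a Polyhomeotic subunit of Polycomb repressive complex 1, with 5032 at -448 of an internal start, ranks 13 and 8. CG31145 (4309, ranks 25 and 18) and msi (4264, ranks 20 and 21) followed. CG1888 (3919), RluA-1 (3915, of the pseudouridine synthase family), Tina-1 (3747), gish (3644, casein kinase 1 gamma) and E23 (3584, an ecdysone-inducible ABC transporter) came next. The list closed with C1GalTA (3527, a core 1 galactosyltransferase), osp (3412), Fhos (3401, a formin), aay (3160, a phosphoserine phosphatase) and RapGAP1 (3032, a GTPase-activating protein for Rap1). Of the 15, 10 lay at genes that spanned over 10 kb, with a median of 19955 bp. Counted per summit in the same way, 513 of all 1295 did, with a median of 6530 bp. The difference was not tested.

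Housekeeping promoter sequences were found close to the start and were rare in the windows of distant summits. DRE stood in 8.19% (106) of the 1295 isolated upstream windows, against 13% (384 of 2950) at crowded promoters and 5.90% of all IDR summits. The Motif 1 core stood in 5.48%, against 7.19% at crowded promoters and 3.58% of all. Motif 6 stood in 1.93% against 2.58% and 1.30%, and Motif 7 in 7.88% against 11.5% and 6.08%. Pooled over all distances, the share of DRE was lower than at crowded promoters beyond counting error (difference -4.83 percentage points, interval -6.70 to -2.84). So was that of Motif 7 (-3.62, -5.42 to -1.68). For DRE the interval reached 0 with the outermost start of each gene alone (-2.39, -4.69 to 0.110). At 1 to 50 bp DRE stood in 18.1% of isolated and 23.5% of crowded windows, and at 51 to 100 bp in 14.6% and 16.6%. At 101 to 150 bp the order turned, at 11.7% and 10.5%. In each bin beyond 150 bp the isolated share was lower. How much of the pooled difference goes with position was not tested. The difference of the Motif 1 core (-1.70, -3.19 to -0.0714) did not hold in the strongest peaks of replicate 2 alone (-0.696, -2.22 to 0.976) or of replicate 3 alone (-0.703, -2.21 to 0.959), and with the outermost start alone its sign turned (0.0600). In windows of the same length 1000 bp upstream and downstream of the isolated summits, DRE stood in 0.232% and 0.154% and the Motif 1 core in 0.154% and 0.0772%. At least 1 of the 4 sequences was present in 262 isolated windows (20.2%), against 30.2% at crowded promoters and 14.9% of all.

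The split by distance was large within the isolated group. At 1 to 100 bp upstream 42.2% of the windows (181 of 429, Wilson 95% interval 37.6 to 46.9%) held at least 1 of the 4. At 101 to 250 bp it was 12.6% (58 of 459, 9.90 to 16.0%), and at 251 to 500 bp 5.65% (23 of 407, 3.79 to 8.34%). DRE went with this at 16.3%, 6.10% and 1.97% in the same order of distance, and the Motif 1 core at 14.2% (61), 1.96% (9) and 0.246% (1). A window reaches 100 bp from its summit, so it can hold sequences near the start only when the summit lies close to it. The drop with distance is thus partly set by the windows. Sequences at the start itself were not split by summit distance. Within the windows, matches of DRE had a median position of -51.0 from the start, Motif 7 of -53.0, Motif 6 of -64.5 and the Motif 1 core of -17.0. Matches of Motif 1 ran in the direction of the gene in 70.4% of 71 cases, those of Motif 6 in 84.0% of 25 and those of Motif 7 in 70.6% of 102. DRE is its own reverse complement and has no direction. Summits with any of the 4 had a median signal of 324, against 383 without (delta -0.192, interval -0.261 to -0.122), and their genes a median length of 4115 bp, against 7360 bp.

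Both replicates gave this order on their own. Among the 9299 strongest peaks of replicate 2 alone, the share with any of the 4 was 43.8%, 11.9% and 6.88% at the same 3 distances. In replicate 3 alone it was 48.3%, 11.5% and 4.68%. The median signal in replicate 2 was 122, 171 and 142, and in replicate 3 it was 198, 287 and 244, so in each the middle distance was the strongest.

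**Figure D3:**
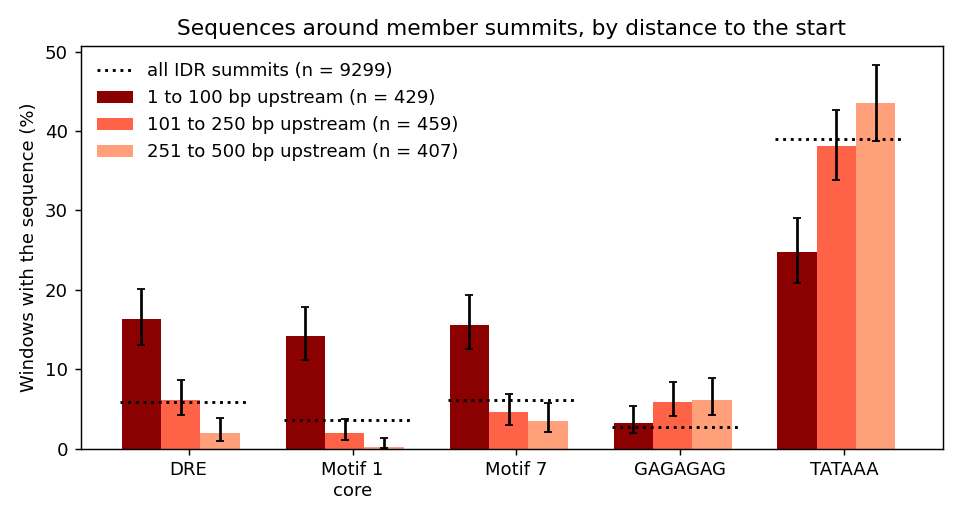
Percent of isolated upstream windows (summit and 100 bp on each side) that hold DRE, the Motif 1 core, Motif 7, GAGAGAG or TATAAA, split by the distance of the summit from the start; error bars are Wilson 95% intervals and dotted lines the shares of all 9299 IDR summits. DRE, Motif 1 and Motif 7 drop with distance, while TATAAA goes up from 24.7% to 43.5%.

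Other sequences did not all behave alike. CGATA, which DRE contains and which is also the word recognised by the insulator protein BEAF-32, stood in 39.8% of the isolated windows, against 48.2% at crowded promoters and 32.2% of all IDR summits. Like DRE it fell with distance, from 62.0% at 1 to 100 bp to 34.4% at 101 to 250 bp and 22.6% at 251 to 500 bp. TATAAA stood in 35.4%, against 38.8% at crowded promoters and 39.0% of all. Its share was 24.7% at 1 to 100 bp, 38.1% at 101 to 250 bp and 43.5% at 251 to 500 bp, and the median G+C content of these windows was 38.8%, 32.8% and 31.8% in that order. Of the matches 49.3% ran along the gene, and their median position was -208. TAATTA, a homeodomain core, stood in 16.2% against 20.1% at crowded promoters and 18.9% of all. CAGCTG, an E-box, stood in 11.5% against 12.9% and 8.72%, and the CTCF sequence AGNTGGCGC in 2.08% against 1.53% and 1.86%. The share of CAGCTG also fell with distance, at 18.9%, 8.93% and 6.63% in the same order. The 3 strongest isolated windows with the CTCF sequence belonged to CG7785 (767), Fancm (692, a DNA repair helicase) and CG1271 (530).

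Of the 21 sequences searched, GAGAGAG alone was more frequent at isolated than at crowded promoters beyond counting error. It stood in 5.10% (66) of the isolated windows, against 1.86% at crowded promoters and 2.73% of all IDR summits, a difference to the crowded ones of 3.23 percentage points (interval 2.03 to 4.64). Among the crowded summits, those between head-to-head starts were lower still, at 1.36%. Summits downstream of isolated starts held it in 6.55% (11 of 168), so it was not particular to the upstream ones. The repeat is also frequent outside the peaks: windows 1000 bp upstream and downstream held it in 3.17% and 3.94%. The isolated summits with it had a median position of -190 and lay at genes with a median length of 14790 bp, against 6189 bp for those without. Their median signal was 305, against 368 without (delta -0.187, interval -0.340 to -0.0342). Only 5 of the 66 also held any of DRE, Motif 1 core, Motif 6 or Motif 7. The strongest were px (5465), CG1907 (2709), Btk (2092) and TRAM (1882). In the strongest 9299 peaks of replicate 2 alone the share was 7.98%, against 2.38% at crowded promoters, and in those of replicate 3 alone 4.31%, against 1.59%. The direction was thus the same in each, but the share depended on the replicate.

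Of the isolated upstream summits 791 (61.1%) lay between genes and 335 (25.9%) in an intron of the same gene, upstream of an internal start. A further 87 lay in an exon of the same gene, 64 in an intron and 18 in an exon of another gene. Counting a start within 100 bp of the gene's outermost one as outermost, 415 summits (32.0%) preceded an internal start and 880 (68.0%) the outermost one. Those at internal starts lay farther upstream, at a median of -248 against -130 (delta -0.356, interval -0.418 to -0.295), and were somewhat stronger, at 404 against 354 (delta 0.113, interval 0.0437 to 0.183). Any of the 4 housekeeping sequences stood in 8.92% of their windows against 25.6%, and DRE in 2.17% against 11.0%. Distance and start kind went together, since 49.6% of the summits at 251 to 500 bp, but 17.5% of those within 100 bp, preceded an internal start. At outermost starts alone the signal still had its highest median, 486, at 151 to 200 bp, and the lowest, 267, at 1 to 50 bp.

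Most genes had a single isolated upstream summit (1043 of 1160), 103 had 2, 11 had 3, 2 had 4 and 1 had 5. The gene with 5 was Rtnl1, a reticulon of the endoplasmic reticulum with 7 annotated starts, whose summits had signals of 2742, 1095, 791, 673 and 412, all at internal starts. Ptpmeg2, a protein tyrosine phosphatase, had 4 (1695, 1539, 1305 and 220). The cAMP phosphodiesterase gene dnc had 4 as well (1647, 1094, 374 and 345). The strongest of each ranked 78, 270 and 290 in replicate 2 and 93, 298 and 319 in replicate 3. Of 1236 start sites with a summit, 59 had 2 or more, and 14 neighbouring summits had windows that overlapped.

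Isolated genes with a summit were longer and had more starts than isolated genes without one. There were 5519 coding genes with at least 1 isolated start (no start of another gene within 2000 bp), and 1142 of them (20.7%, Wilson interval 19.6 to 21.8%) had an isolated upstream summit. A further 18 genes with such a summit fell outside these, because the distance is taken from the summit in one case and from the start in the other. Genes with a summit had a median length of 5996 bp, against 2772 bp for isolated genes without, and 51.3% against 30.8% had several start sites. A gene counts if any of its isolated starts has a summit, so further starts add places to find one. This builds in part of the difference in starts, and lengths were not compared at equal numbers of starts. With only the outermost start of each gene, 17.5% of isolated genes had a summit. The share with a summit was 4.57% of 679 genes under 1 kb, 15.7% at 1 to 3 kb, 26.5% at 3 to 10 kb, 29.2% at 10 to 30 kb and 28.9% above 30 kb. IDR summits inside the gene other than isolated upstream summits were present in 34.6% against 16.7%. By length the shares were 67.1% (interval 62.5 to 71.4%) against 46.6% (43.6 to 49.7%) over 10 kb, and 25.8% (21.7 to 30.4%) against 18.6% (16.4 to 21.0%) at 3 to 10 kb. Under 3 kb they were 3.58% and 2.37%, with intervals that overlapped.

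The start sites themselves differed. Isolated starts within 100 bp of each other were joined into 7559 clusters, of which 1211 had an isolated upstream summit, 5986 had no IDR summit within 500 bp and 362 had another summit only. TATAAA at -45 to -15, the place of a TATA box, stood at 2.64% of starts with a summit, against 8.72% of those without (difference -6.08 points, interval -7.14 to -4.81). DRE within 150 bp upstream stood at 7.43% against 1.87% (difference 5.56, 4.16 to 7.21). The Motif 1 core within 60 bp of the start stood at 7.02% against 0.768%, and Motif 7 at 9.83% against 2.61%. The Initiator word TCAGT at the start was about equal, 17.0% against 18.0% (difference -0.981, -3.22 to 1.43). GAGAGAG within 200 bp upstream stood at 11.1% against 8.87% (difference 2.19, 0.388 to 4.21).

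Base composition separated both sets most clearly upstream. With a summit, mean G+C per 20 bp was 47.9% just before the start and dropped to 34.4% around -190 and 34.0% around -290. Without a summit it was 44.9% just before the start, 40.3% around -190 and 39.8% around -290. The standard error of these means was at most 0.483 points (n = 1211) with a summit and 0.202 points (n = 5986) without. The A+T-rich stretch therefore covered the median position of the strongest summits. Sequencing and mapping can depend on base composition, and its part in the peak positions was not tested.

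**Figure D4:**
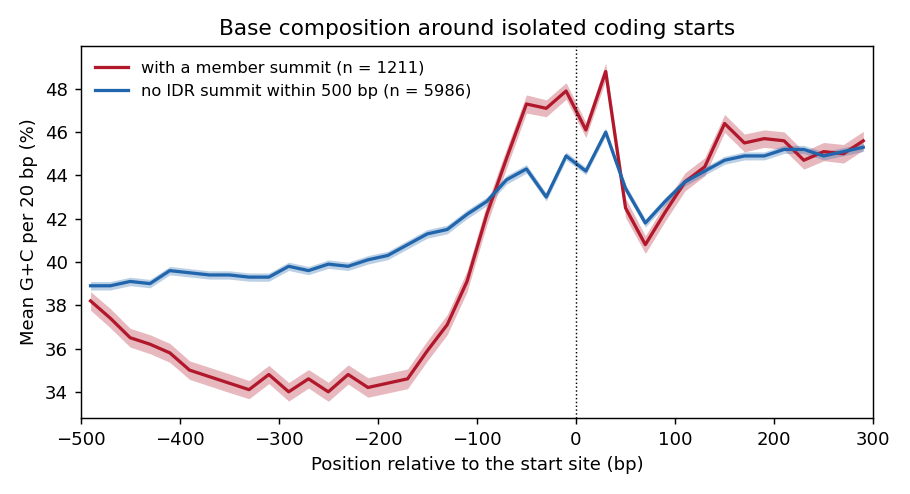
Mean G+C content in 20 bp steps around isolated coding starts (0, dotted line) with an isolated upstream summit (red, n = 1211) and with no IDR summit within 500 bp (blue, n = 5986); bands are 1 standard error. The red line stays near 34% over -330 to -170, under the blue line, and is above it from -70 to the start.

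Gene groups differed widely in how many of their isolated genes had such a summit, set against 20.7% of all 5519 isolated coding genes. Among the groups of constant cell function, 10 of 13 cytoplasmic ribosomal protein genes with an isolated start had one (76.9%, interval 49.7 to 91.8%), 7 of 12 translation factors and 8 of 14 genes of cell cycle and replication. The 3 ribosomal genes without were RpL21 and RpS10a, which had an IDR summit in another place near a start, and RpL22-like, which had none within 500 bp. RpS10b (896, ranks 1081 and 1023) and RpS26 (822, ranks 1184 and 1212) were the strongest ribosomal genes, at -73 and -76. For translation they were eEF1gamma (1074, position -34, with DRE) and eIF4E1 (353, the cap-binding factor). For the cell cycle they were mad2, of the spindle checkpoint (615, position -81), and PolA1, the catalytic subunit of DNA polymerase alpha (575, position -69), both with DRE and Motif 7. Of chaperones 4 of 6 had a summit, led by the small heat shock gene Hsp27 (2306, ranks 152 and 139). The proteasome list had 2 of 13, Rpn10 (512) and Prosalpha5 (413). Those without include several paralogs known from the testis, among them Prosalpha3T.

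Among lists of developmental regulators and signalling genes, counts were as follows. Of Polycomb and Trithorax genes 8 of 14 had a summit (57.1%, interval 32.6 to 78.6%), with ph-p first (5032) and esc second (412). Segmentation genes had 12 of 27 (44.4%, interval 27.6 to 62.7%), with H15 (810) and bcd (585, the anterior morphogen) the strongest, while hb and Kr, gap genes, had no IDR summit within 500 bp of a start. Genes of EGFR signalling and the MAP kinases had 11 of 25 (44.0%), led by edl (1839, an antagonist of the ETS repressor Yan) and the FGF receptor htl (953). Hox and homeotic genes had 6 of 14 (42.9%, interval 21.4 to 67.4%), among them Dfd, Antp and abd-A. The intervals of these 4 lists lay above 20.7%. Against genes of like length, those of the Polycomb list (median 8746 bp) and the segmentation list (4784 bp) also lay above the 26.5% of all isolated genes of 3 to 10 kb. Those of the EGFR list (16810 bp) and the Hox list (20000 bp) held the 29.2% of genes of 10 to 30 kb. In all 27 lists were read, and the intervals are not adjusted for their number.

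Among the pathways in which Nemo is best known, differences between lists were not tested and their intervals overlapped. Of the Wnt list 10 of 25 isolated genes had a summit (interval 23.4 to 59.3%). They included gish (3644, ranks 32 and 39), sgg, the GSK3 kinase (1806, ranks 201 and 287), gro, the Groucho corepressor, the feedback inhibitor nkd, the kinases dco and CkIalpha, dsh, wg, Wnt6 and fz3. Wnt2 and Wnt4 had no IDR summit near a start. The clock list had 5 of 10 (interval 23.7 to 76.3%), with E23 (3584) first, and shared sgg and dco with the Wnt list. Notch genes had 6 of 16 (37.5%, interval 18.5 to 61.4%), led by E(spl)m7-HLH (1909), a Notch-induced repressor, and numb (1641), a Notch inhibitor. Of planar polarity genes 3 of 10 had one (interval 10.8 to 60.3%), with dsh (354) and frtz (252) first. Of the BMP and activin list 1 of 16 did (6.25%, interval 1.11 to 28.3%), the zinc-finger factor shn (355), and dpp and scw, ligands of the pathway, had none. The Notch, planar polarity and BMP intervals held 20.7%. Those of the Wnt and clock lists (medians 14150 bp and 16800 bp) held the 29.2% of genes of 10 to 30 kb. That of the BMP list (median 12380 bp) lay below 29.2%. The nmo gene itself was not among the isolated ones: its upstream summit, of signal 1171 at -154, had another gene's start 242 bp away.

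Neural fate had 11 of 40 (27.5%), with chn (2950) first, mesoderm and muscle 9 of 34 (26.5%), with the Pax gene Poxm (2233) and the titin-like sls (1419) first, and cell adhesion and polarity 8 of 35 (22.9%), with the integrin scb (1419) and the receptor phosphatase Lar (487). Their intervals all held 20.7%, as did those of Hippo and Hedgehog (5 of 15, kibra 707 and ttv 366 first), synaptic release (3 of 21, Sytbeta 263 and brp 186) and ecdysone response (2 of 22, crol 336 and shd 285). The ecdysone interval (2.53 to 27.8%, median length 38454 bp) lay below the 28.9% of isolated genes over 30 kb. Cell death had 3 of 7, with the apoptosis inducer hid (1221) and the TNF ligand egr (573). Insulator and promoter factors had 2 of 8 (nej 583 and opa 241). Mitochondrial ribosomal proteins had 2 of 6 (mRpL19 345 and mRpS5 180), and so had tRNA synthetases (PheRS-m 186 and TrpRS-m 175).

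A further 3 lists had intervals below 20.7%. Ion channels and transmitter receptors had 3 of 48 (6.25%, interval 2.15 to 16.8%), GluRIIB (280), slo (228) and 5-HT2B, although their genes are long, with a median of 24448 bp. No summit was found at any of 90 isolated chemoreceptor genes, which allows a share of up to 3.33% (3 counts of the total; the Wilson limit is 4.09%), nor at 54 cuticle and chorion genes, which allows up to 5.56% (Wilson 6.64%). These genes are short, with medians of 1786 bp and 1326 bp, but 15.7% of all isolated genes of 1 to 3 kb had a summit. Lists overlap, their members were chosen with earlier results of these data known, and the intervals cover counting error only.

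**Figure D5:**
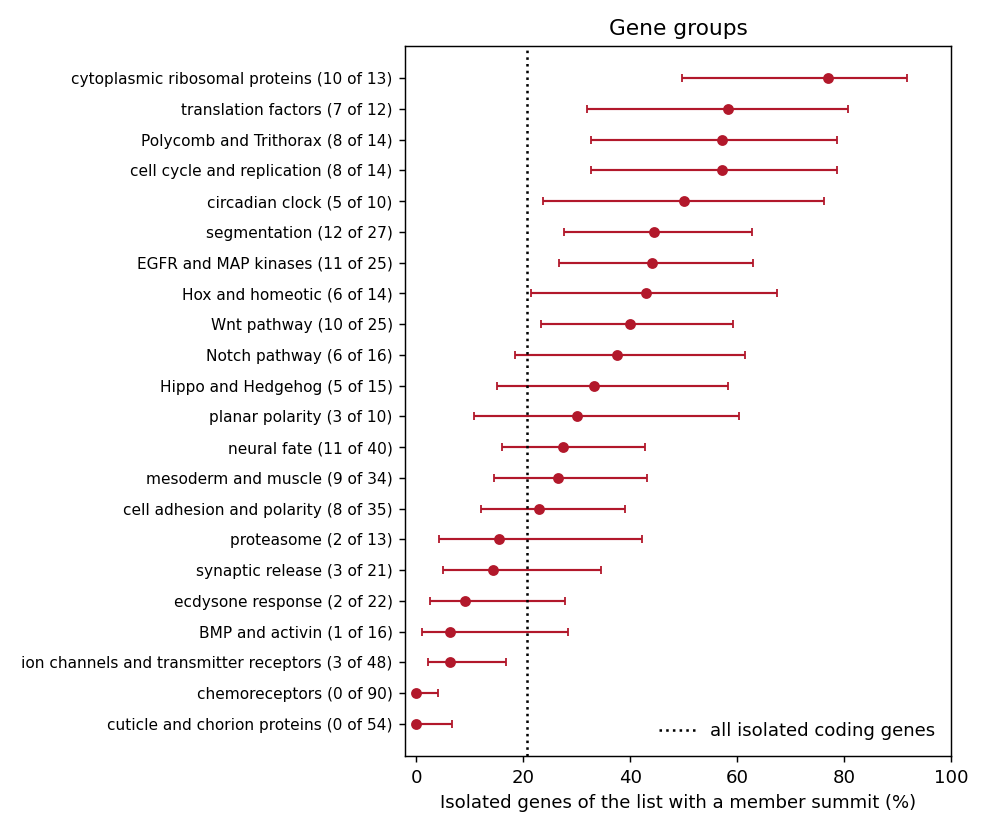
Percent of the isolated genes of each list that had an isolated upstream summit, for lists with at least 10 isolated genes; points are shares, bars Wilson 95% intervals, and the dotted line is the share of all isolated coding genes (20.7%). Ribosomal proteins are highest at 76.9%, and chemoreceptors and cuticle and chorion genes are at 0.

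The IDR list keeps peaks that both replicates rank alike, so recovery in the replicates is largely fixed by the rule and is given as a description. A replicate summit within 100 bp was found in both lists for 1208 of the 1295 (93.3%, interval 91.8 to 94.5%), against 93.5% of all IDR summits, and in neither list for 5. The median position was -164 from the summits of replicate 2 and -168 from those of replicate 3, and the distance between them had a median of 22.0 bp. Across the 1208 summits, which share libraries and are not replicates, Spearman's rho of the signal values was 0.826, against 0.818 over all IDR summits. Ranks differed by over 4-fold for 18 of them (1.49%), against 0.736% of all IDR summits in both lists. Those ranked much higher in replicate 2 were ced-6 (an engulfment adaptor, 1021 against 12058 in replicate 3), trbl (the Tribbles pseudokinase, 479 against 4408) and the Hox gene Dfd (3820 against 29279). Those ranked much higher in replicate 3 were Yeti (2258 against 16487 in replicate 2) and eIF4B (4029 against 19786). CG14100 also had such a ratio, but it stood at the top of both lists (1 and 5).

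Of the 1208 isolated upstream summits in both lists, 54.2% ranked higher in replicate 2, against 43.0% of all IDR summits in both lists. The median log2 ratio of ranks (replicate 2 over replicate 3) was -0.06, against 0.09. The following lists were picked after their values were seen. Of the 12 isolated upstream summits of segmentation genes, 11 ranked higher in replicate 2, with a median log2 ratio of -1.39 and median ranks of 2487 in replicate 2 and 6534 in replicate 3. Of 6 at Hox and homeotic genes, some of them on both lists, 5 did, with a median of -1.56. H15 ranked 405 in replicate 2 and 2738 in replicate 3, cad 1874 and 6720, wg 2624 and 6303, and en 4340 and 9593. Smaller leanings the same way were seen for the Wnt list (10 of 13, median -0.44), neural fate (8 of 11, -0.36) and mesoderm and muscle (8 of 10, -0.26). Ribosomal protein genes leaned this way in count (8 of 12), with a median log2 ratio of -0.08, and so did translation factors (5 of 7, -0.17). Notch genes (5 of 6, -0.33), Hippo and Hedgehog (4 of 6, -0.25) and cell adhesion (5 of 7, -0.22) did as well. The EGFR list (5 of 10, 0.03), the clock list (3 of 6, -0.01) and the cell cycle list (4 of 8, -0.12) were even in count. Polycomb and Trithorax genes had a median of 0.53, with 2 of 7 higher in replicate 2. Base composition moved with it: the windows had a median G+C of 56.7% at segmentation genes and 50.2% at Hox genes, against 34.8% over all isolated upstream summits. Among the 298 isolated upstream windows with the highest G+C, 282 were in both lists and 69.5% of those ranked higher in replicate 2 (median -0.31). Among the 334 with the lowest G+C, 316 were in both lists, with a median log2 ratio of 0.00. Of the 60 summits with GAGAGAG found in both lists, 73.3% ranked higher in replicate 2 (median -0.47), and their windows had a median G+C of 46.5%. The part of base composition in these ranks was not tested, and with 1 library per replicate it cannot be told apart from the embryos of each collection.

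The rule's limits cut through a continuous set. Just inside the 500 bp limit were ush (527) and shd (285), both at -500, and just outside Mob2 (207, at -501) and CG2201 (346, at -502). Just inside the 2000 bp limit were CG6891 (891, another start 2002 bp away) and dpr2 (383, 2009 bp), and just outside CG43844 (196, 1999 bp) and Alr (272, 1998 bp).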

How the data were processed

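The 4 deposited files are narrowPeak lists on dm6: 30000 peaks each for replicate 2, replicate 3 and their pool, and 9299 thresholded by IDR. Column 7 of the deposited lists is a signal value, a score on the authors' scale; column 9, the deposited −log10 q-value, was not used for ranking. Aligner, caller, settings and IDR threshold are not given in the sources used here, and depth is unknown.

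Summits were start plus offset, 1-based. Start sites came from 18277 genes of the BDGP6 annotation, 13968 of them protein-coding, without 5889 transposable element entries. Windows of 201 bp were searched on both strands. Differences carry DeLong (Cliff's delta) or Newcombe (shares) 95% intervals, with no p-values, computed with Python 3.11.15 and scipy 1.17.1 and tested on simulated data.

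Members, the 27 gene lists and the sequences were chosen with earlier results of these data known. Named genes are the 15 strongest summits, the 2 strongest per list, the 3 strongest per sequence off arm 2R, the 3 genes with most summits, the 3 most unequal ranks each way and up to 2 listed genes per list without a summit. Other genes were named after their values were seen. Alternatives were each replicate alone, a stricter list, and other distances, starts and windows.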

Additional observations from a re-analysis of the deposited data

Results flagged for a closer look

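The pooled peak list, which entered no comparison above, holds further summits at isolated starts. Of the 5986 isolated start clusters with no IDR summit within 500 bp, 1081 (18.1%) had a summit of the pooled list 1 to 500 bp upstream. No control samples were analysed here against which to set them, and their cause was not tested.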

How the results depend on the processing

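Of 137 values recomputed under the alternatives, 84 stayed within the main interval or on the same side of 0, or, for the count, within 1.5-fold. The differences in position, DRE, Motif 1 core and GAGAGAG against crowded promoters were added after seeing the data. Position (delta -0.385 to -0.0923) and GAGAGAG (1.57 to 5.60 points) kept their side of 0 under each. DRE did so except with the outermost start (-2.39). The Motif 1 core did so with 5000 bp isolation and with coding genes alone breaking isolation, and reversed with the outermost start (0.0600). It lost its call in the replicates alone (-0.703 to -0.696), the stronger IDR peaks (-0.0257), 1000 bp isolation (-0.665), the 250 bp limit (-0.0909), transposable elements counted (-1.64) and shorter windows (-0.450). With each replicate's own strongest peaks, the number of summits was 1253 to 1328, the median position -172 to -158, and the delta of signal against crowded promoters -0.0310 to -0.0185. In those lists 88.0 to 91.6% were found again in the other replicate, as each summit is in its own list by construction. Of isolated genes 20.0 to 20.5% had a summit. DRE stood in 8.06 to 8.73% of windows, the Motif 1 core in 5.75 to 6.33%, GAGAGAG in 4.31 to 7.98% and TATAAA in 32.5 to 35.0%. G+C was 34.3 to 35.8%.

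In the 4649 IDR peaks of highest signal, a smaller list by construction, there were 728 at a median of -179, with a delta of 0.00701, 96.3% in both replicates, 12.1% of isolated genes, DRE in 6.59%, GAGAGAG in 3.98% and G+C of 33.3%. With isolation of 1000 bp the position was -152 and the delta -0.0694. With 5000 bp there were 518 summits at -212, delta 0.0496, 90.9% in both replicates, DRE in 6.76%, the Motif 1 core in 2.32%, GAGAGAG in 7.72%, TATAAA in 38% and G+C of 33.8%. With an upstream limit of 250 bp the position was -106, the delta -0.0688, the share of isolated genes 15.4%, DRE 11.0%, the Motif 1 core 7.88%, TATAAA 31.6% and G+C 35.8%. With the outermost start alone these were -131, -0.0734 and 17.5%, DRE 11.0% and the Motif 1 core 7.32%. Windows of 50 bp on each side, shorter by construction, held DRE in 4.71%, the Motif 1 core in 2.70%, GAGAGAG in 2.32% and TATAAA in 20.2%, with G+C of 33.7%. Both replicates held 96.5% by peak overlap, 78.4% by summits within 50 bp and 79.7% among the strongest peaks of each. Apart from shorter windows and smaller lists, the cause was not tested.

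No paired analysis was possible because there is 1 group. Read depth is unknown, so no interval covers it, and 2 replicates of mixed embryos give no spread for shares.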
